A study of Mus musculus with 2 samples.

Results

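Nonsense-mediated decay (NMD) isoforms are transcripts that the Ensembl annotation marks as likely targets of the decay pathway that removes messenger RNAs with a premature stop codon. The members described here are the rows of the deposited footprint table whose biotype is nonsense_mediated_decay: 4903 of 109463 transcripts, from 3173 of 45578 genes. Each was set beside the protein-coding transcript of the same gene with the highest summed count, called its coding partner. The biotype is an annotation, and no RNA level or half-life was measured, so the data show footprint counts on these isoforms and not their decay.

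The material was cytoplasmic lysate of brain of control mice (genotype Smn+/-; SMN2tg/0, a heterozygous line of the Taiwanese spinal muscular atrophy model on a congenic FVB background) at postnatal day 5, killed by an anaesthetic overdose; no drug under study is named. The 1 group has 2 biological replicates, both with 1 Smn copy and the human SMN2 transgene, so no animal without these alleles was available for comparison. The design text speaks of a mouse in the singular, and whether the replicates were separate animals is not stated. The assay, RiboLace, captures translating ribosomes on beads that carry a puromycin analogue and sequences the RNA fragments, size selected at 25 to 35 nucleotides, that those ribosomes protected. Among markers, 6 of 6 neuronal genes (2466 and 887 counts in sum over their top transcripts) and 5 of 5 astrocyte and radial glia genes (967 and 331) had counts in both libraries. Of 3 liver genes Alb and Apoa1 had 0, while Ttr, which choroid plexus also makes, had 395 and 153. Of 3 muscle genes Ckm had 0, Myh3 had 2 and 2, and Acta1, which shares sequence with other actins, had 70 and 22. The 3 globin genes of blood had 1056 and 349 in sum.

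During splicing, an exon junction complex is left upstream of each exon boundary. A ribosome that terminates well before the last junction leaves a complex in place on the messenger RNA, which recruits the decay factors Upf1, Upf2 and Upf3b. Decay therefore needs translation, and NMD isoforms meet ribosomes at least once. In brain, as elsewhere, many splicing factors hold their own level by including a poison exon or splicing their 3' untranslated region (UTR), which turns part of their output into such isoforms.

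The annotated structure of the members follows this definition. The median coding sequence of the 4853 NMD isoforms with a coding partner was 309 nucleotides, against 1536 in the partner. Here and below, the 3130 partners enter once per pair. Of these pairs, 4616 (95.1%) had a shorter coding sequence in the NMD isoform, 137 had equal coding lengths and 100 a longer one. The 3' UTR filled a median of 62.7% of the NMD isoform and 30.0% of the partner. It was longer in nucleotides than the partner's in 2566 pairs (52.9%). The NMD isoforms were also short transcripts, with a median of 1287 nucleotides against 2968. No 5' UTR was annotated for 1547 of the 4903 isoforms (31.6%), so their models begin inside or at the start of the coding sequence.

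**Figure D1:**
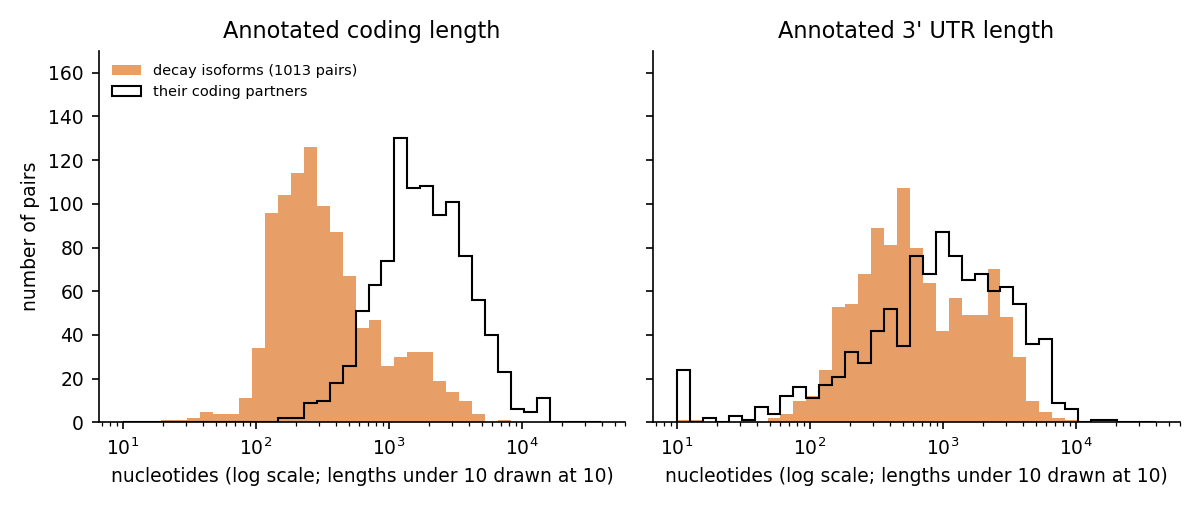
Annotated coding length (left) and 3' UTR length (right) in nucleotides, on log axes, for the 1013 pairs whose partner had at least 20 counts; filled bars are NMD isoforms, outlines their coding partners, and the vertical axis counts pairs. The coding lengths separate (medians 291 and 1770), while the 3' UTR lengths overlap widely (medians 566 and 1035).

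NMD isoforms held 30050 counts of 729027 in replicate 1 and 7986 of 225075 in replicate 2. These are 4.12% (95% Wilson interval 4.08 to 4.17) and 3.55% (3.47 to 3.63) of table counts, or 3.84% ± 0.406 (SD, n = 2). The intervals cover counting error only and do not overlap. How fragments that match several isoforms were counted is not given in the sources used here. If such a fragment adds 1 count to each transcript it matches, a count on an NMD isoform can hold fragments that its coding partner could equally have given; this was not tested. At least 1 count in each library was found for 2069 NMD isoforms (42.2%), against 34.6% of all transcripts in the table and 47.0% of protein-coding ones. A further 1341 had counts in replicate 1 alone and 182 in replicate 2 alone, and 1311 had 0 in both, which allows up to 3 counts in each library. A mean of at least 10 counts was reached by 469 isoforms, or 9.57%, beside 10.1% of all transcripts.

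The highest count belonged to Actg1-002, an isoform of cytoplasmic gamma actin (ENSMUSG00000062825), with 650 counts in replicate 1 and 155 in replicate 2. Its partner Actg1-001 had 700 and 193, so the NMD isoform stood at 86.6% ± 8.87 (SD, n = 2) of the partner with 35.4% of its coding length (399 of 1128 nucleotides). Actin fragments also match other actin genes, so this count is uncertain. Ywhae-002, from the gene of a phosphoserine-binding adaptor protein, followed with 243 and 83 counts, or 59.3% ± 1.20 of its partner (SD, n = 2). Per kilobase of transcript these were the densest of the 12 isoforms with the highest counts, at 547 and 130 counts for Actg1-002 and 406 and 139 for Ywhae-002. Both stood below their partners in both libraries.

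Several of the other isoforms at the top of the count order were nearly equal to their partners. Atp2a2-003, from the endoplasmic reticulum calcium pump gene, had 222 and 57 counts against 237 and 60. Ddx5-002, from an RNA helicase gene, had 201 and 61 against 200 and 65. Ctnnb1-002, from the beta-catenin gene, had 201 and 48 against 207 and 43. In these 3 genes the difference between the isoforms was at most 15 counts in a library, and in Ddx5 and Ctnnb1 its sign differed between the libraries.

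Kif21b-001, from a kinesin motor gene, had 101 and 28 counts against 96 and 30. Vdac1-003, from the gene of a mitochondrial outer-membrane channel, stood lower, with 129 and 46 against 145 and 52. Pebp1-003, from the gene of the Raf kinase inhibitor protein, had 105 and 31 against 140 and 42. The largest distance among the 12 was that of Hsp90ab1-007, from a cytosolic chaperone gene, with 135 and 29 counts against 564 and 224, or 18.4% ± 7.77 (SD, n = 2). That isoform has 703 nucleotides and its partner 2520.

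Across all pairs, the question is how much of the partner's footprint count an NMD isoform holds. The partner had at least 20 counts in sum in 1013 pairs of 691 genes, and this filter did not use the count of the NMD isoform. The other 3840 pairs fell below it. The median NMD isoform held 45.0% of its partner's count (quartiles 16.7 and 80.9), with 44.8% in replicate 1 and 40.0% in replicate 2. On the log2(count + 0.5) scale the median ratio was -1.13 in replicate 1 and -1.14 in replicate 2. With 1 NMD isoform per gene, that with the highest count, it was -0.63. The ratio of a single pair differed between the libraries by a median of 0.56 on the log2 scale, from 0.63 where the partner had 20 to 49 counts to 0.32 where it had 100 or more.

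**Figure D2:**
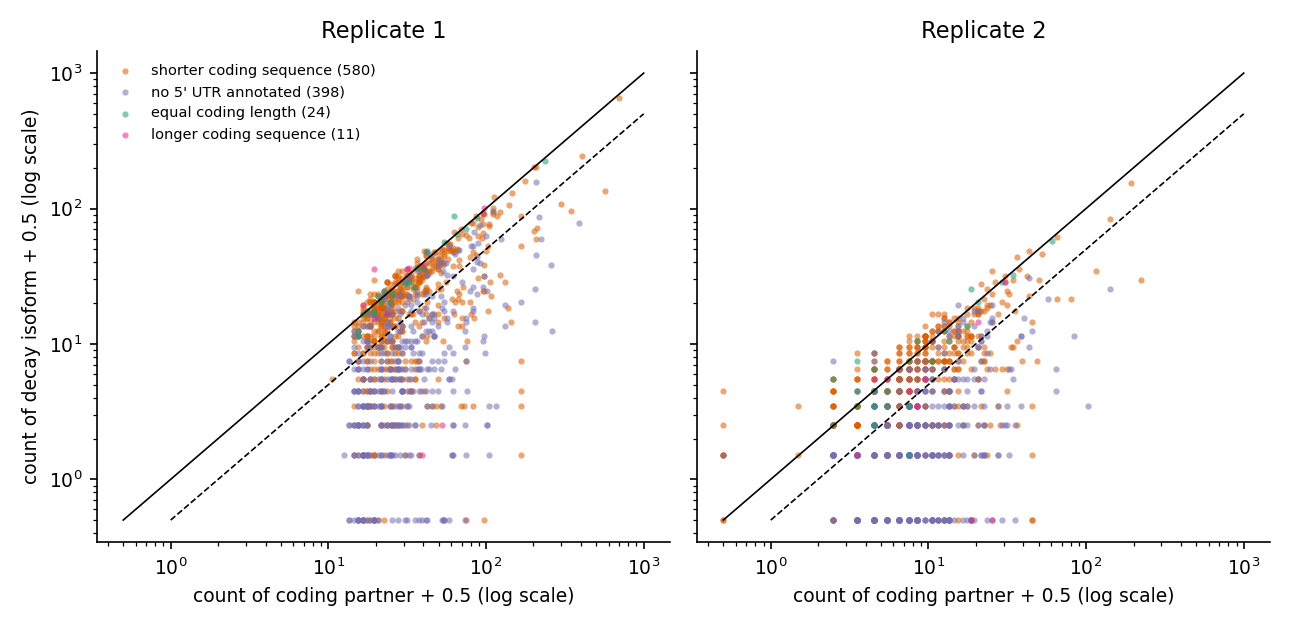
Count of each NMD isoform (vertical) against that of its coding partner (horizontal), each plus 0.5 on log axes, in replicate 1 (left) and replicate 2 (right), for 1013 pairs coloured by structural class. The solid line marks equal counts and the dashed line 50% of the partner; points crowd just under the solid line, while isoforms with no annotated 5' UTR spread far below it.

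An NMD isoform held at most 50% of its partner's count in both libraries in 491 pairs (48.5%). Among all 16022 isoforms set against a partner in the same way, of every biotype, the share was 60.4%. Among coding isoforms other than the partner it was 39.3%, over 7207 isoforms of 2484 genes with a median of 60.6% of the partner's count. In the 691 genes of the NMD pairs, the 2156 other coding isoforms held a median of 47.7%, beside 45.0% for the NMD isoforms. Their median transcript lengths were 42.7 and 37.4% of the partner's. Another coding isoform cannot exceed the partner in sum, so no order of these biotypes is read here. In 25 pairs the NMD isoform had 0 counts in both libraries.

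The structural classes of these pairs differed in count share and also in relative length. The 398 isoforms with no annotated 5' UTR, whose models are short (median 726 nucleotides), held a median of 18.2% of the partner's count. The 580 isoforms with a 5' UTR and a shorter coding sequence held 70.2%, and the 11 with a longer one held 92.2%. The libraries disagreed on these 11, with a median of 96.8% in replicate 1 and 55.6% in replicate 2. The 24 isoforms with a coding sequence as long as the partner's held 94.5% (quartiles 84.3 and 101). At most 50% of the partner in both libraries was found in 311 of the 398, 178 of the 580, 2 of the 11 and 0 of the 24. In the same order, the median transcript length was 20.3, 56.0, 102 and 99.1% of the partner's. The part of relative length in these differences was not tested.

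In the group of 24 the coding length is kept, and in 23 of these pairs the length of an untranslated region differs. In Gbas-002 both UTR lengths equal the partner's. Besides Atp2a2-003, the group includes Srsf2-002 and, named after their values were seen as the next by partner count, Ppp1cb-002 and Khdrbs1-001. Ppp1cb-002, from the gene of a protein phosphatase catalytic subunit, had 84 and 32 counts against 87 and 34 in a partner whose 3' UTR is 4465 nucleotides long, against 1159 in the NMD isoform. Khdrbs1-001, from the gene of an RNA-binding splicing regulator, had 70 and 28 counts against 74 and 29. The lowest ratio in the group was 70.0%.

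For the relation to length, the count ratio of a pair had a Spearman rho of 0.766 with the ratio of transcript lengths and 0.604 with the ratio of coding lengths across the 1013 pairs. These are descriptions across pairs that share fragments and genes. Per kilobase of transcript, the median log2 ratio of NMD isoform to partner was -0.00893 over the summed counts, with 0.01 in replicate 1 and 0.09 in replicate 2. Per kilobase of coding sequence it was 0.73, with 0.73 and 0.89. The sign of the difference between an NMD isoform and its partner thus depends on the length by which the count is divided: below on counts, near 0 per transcript length, above per coding length.

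Isoforms of other biotypes, set against partners by the same rule, gave other values per kilobase of transcript. The median log2 ratio was -0.10 for 7207 other protein-coding isoforms, -0.35 for 3135 processed transcripts and -0.71 for 4660 retained-intron isoforms. In all 5 bins of relative length, the median NMD isoform held a larger share of the partner's count than the median retained-intron isoform or processed transcript. Where the NMD isoform was 75 to 100% as long as its partner, the medians were 81.7% for NMD isoforms (154 pairs), 84.0% for other coding isoforms, 41.0% for retained-intron isoforms and 54.3% for processed transcripts. The medians of NMD and other coding isoforms were 74.8 and 69.0% between 50 and 75%, and 88.5 and 86.7% from 100% up. Because the partner is the coding transcript with the highest summed count, another coding isoform cannot exceed it in sum while an NMD isoform can, so no order of these 2 biotypes is read from the bins. These differences were not tested, since isoforms are not replicates.

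**Figure D3:**
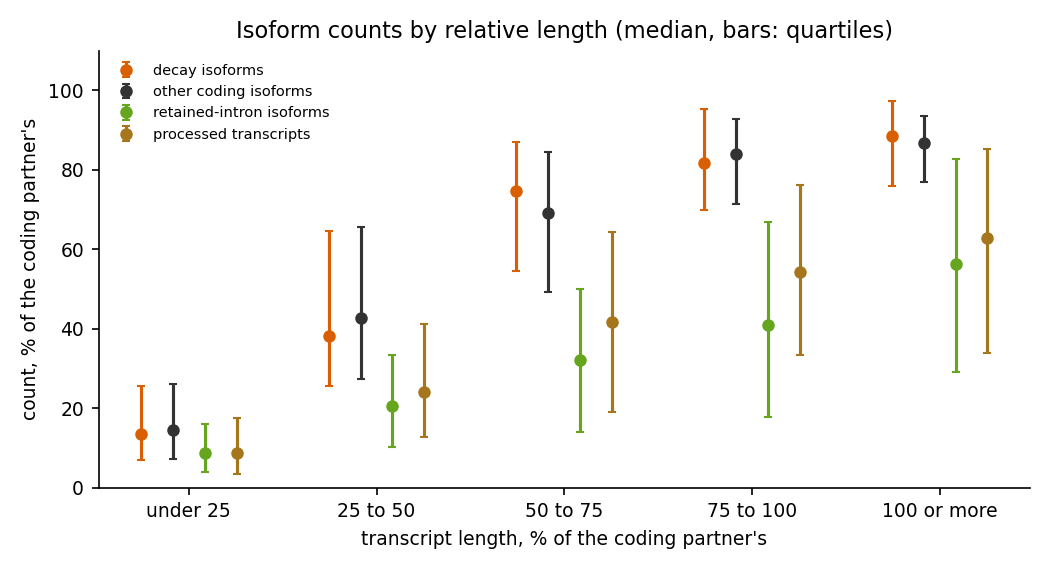
Count as a percentage of the coding partner's (vertical; points are medians over pairs, bars the quartiles) by transcript length as a percentage of the partner's (horizontal), for 4 biotypes with a partner of at least 20 counts. NMD isoforms lie beside other coding isoforms, from 13.6 and 14.6% in the shortest bin to 88.5 and 86.7% in the longest, and above retained-intron isoforms (8.70 to 56.2%).

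If footprints fell evenly along the partner's coding sequence and only there, an isoform that shared just its own annotated coding part would hold the same share of the count as of the coding length. The 580 NMD isoforms with a 5' UTR and a shorter coding sequence held a median of 2.02 times that share (quartiles 1.20 and 3.58), with 2.08 in replicate 1 and 1.93 in replicate 2. The ratio was above 1 in 489 of them (84.3%). Their counts equalled those of a median of 757 nucleotides of partner coding sequence, against an annotated coding length of 273. Their median transcript length was 56.0% of the partner's, against 23.0% for the coding length. Where a UTR of the isoform holds part of the partner's coding sequence, fragments counted for both transcripts would raise this ratio. How often that occurs was not measured, so no conclusion is drawn from a ratio above 1. The table gives no position of fragments, so where on these isoforms they lay was not measured.

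Many isoforms combined an early end of the coding sequence with most of the partner's count. Of 447 NMD isoforms with a 5' UTR and at most 50% of the partner's coding length, 129 (28.9%) held at least 80% of its count. Without the condition on the 5' UTR it was 144 of 813 NMD isoforms (17.7%), against 4.74% of all 3480 isoforms with at most 50% of the partner's coding length, of any biotype with a coding sequence. These 3480 include the NMD isoforms, which gave 144 of the 165 that passed. For other coding isoforms with a 5' UTR it was 1.01% (19 of 1888). By the partner rule, the coding isoform with the highest summed count leaves this set, and the others cannot exceed it in sum. No order of NMD and coding isoforms is therefore read from these shares. The median transcript length of the 1888 coding isoforms was 18.4% of the partner's, against 42.9% for the 447 NMD isoforms. Among those that passed it was 58.1% for the 19 and 85.3% for the 129, so the 129 were mostly long transcripts. The part of transcript length in the difference was not tested. The 129 had a median 3' UTR of 2119 nucleotides against 981 in their partners. The thresholds of 50% and 80% were chosen after the data were seen.

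**Figure D4:**
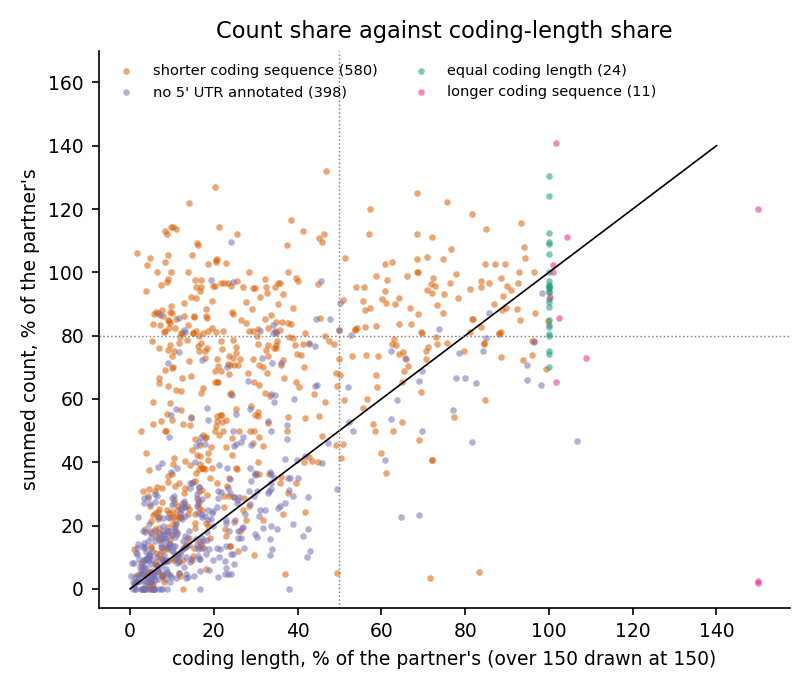
Summed count (vertical) against coding length (horizontal), each as a percentage of the coding partner's, for 1013 pairs coloured by structural class; the solid line marks equal shares and the dotted lines 50% of the coding length and 80% of the count. The 129 isoforms with a 5' UTR in the upper left region hold most of the partner's count with a small part of its coding sequence.

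Gabbr1-005, from the gene of a GABA-B receptor subunit (ENSMUSG00000024462), illustrates the pattern. Its coding sequence is 534 of the partner's 2883 nucleotides and its 3' UTR 3400 against 2041. It had 121 and 29 counts against 112 and 34, so it was higher in replicate 1 and lower in replicate 2. Ndrg4-010, with 246 of 1215 coding nucleotides, had 160 and 43 counts against 176 and 36. Psmd2-002, from the gene of a regulatory subunit of the proteasome and named after its values were seen, has 183 coding nucleotides of 2727 and a 3' UTR of 2805 nucleotides against 169. It had 93 and 35 counts against 110 and 37.

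The opposite end holds genes whose NMD isoforms all had at most 10% of the partner's count. By partner count the first 6 were Lrp1, Reln, Srrm2, Top2b, Ank2 and Astn1, which encode a lipoprotein receptor, the secreted migration signal reelin, a splicing coactivator, a DNA topoisomerase, an ankyrin scaffold and a neuronal migration protein. Lrp1-007 had 12 and 3 counts against 262 and 102 for Lrp1-001, or 3.76% ± 1.16 (SD, n = 2). Reln-011 had 3 and 0 against 116 and 29. Top2b-004 had 8 and 3 against 98 and 38. The NMD isoforms of these 6 genes with the highest counts have 448 to 679 nucleotides and no annotated 5' UTR, while the partners have 5120 to 14888 nucleotides. 

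If a fragment counts at most once per transcript, an excess over the partner is the least number of fragments that match the NMD isoform and not its partner. The NMD isoform was above the partner in both libraries in 17 of 1013 pairs (1.68%). Among all 8815 isoforms not annotated as protein coding the share was 0.488%. These 8815 include the NMD isoforms, which gave 17 of the 43 that passed. The count rested on requiring both libraries and on low partners. Whatever the other library showed, 66 pairs were above in replicate 1 and 104 in replicate 2. Of the 17, 3 had a partner of at least 50 counts. The excess was 3 to 9 counts per pair over both libraries, which is small beside counting error. In 3 of the 17 pairs, those of Ptprn2, Ipo4 and Ftl1, the gene has 1 coding transcript in the table. In the others the extra fragments may also match a further coding isoform. In 14 the coding sequence was shorter than the partner's, and in 12 the 3' UTR was longer.

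Srsf2-002, from the gene of an SR splicing factor (ENSMUSG00000034120), shared the largest excess, with 56 and 25 counts against 54 and 18 for Srsf2-001. Both transcripts have 666 coding nucleotides, and the 3' UTR is 527 nucleotides long in the NMD isoform and 1068 in the partner. Rab11b-004, from the gene of a recycling endosome GTPase, had 67 and 16 counts against 62 and 12. Ptprn2-001, from the gene of a dense-core vesicle phosphatase-like protein, had 47 and 12 against 41 and 10. Ipo4-002, from an importin gene, had 34 and 10 against 27 and 9. In each of these the excess was positive in both libraries and at most 7 counts in either.

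Psma3-002, from a proteasome core subunit gene, combined an excess with a coding sequence of 108 nucleotides against 768. It had 28 and 11 counts against 23 and 9. Flot2-004, from the gene of a membrane raft protein, had 25 and 8 against 23 and 3 with 261 of 1287 coding nucleotides. Dos-002 had 36 and 15 against 35 and 12 with 339 of 2097. Ftl1-002, from the ferritin light chain gene, had 45 and 10 against 41 and 8; ferritin fragments may also match processed pseudogenes. The remaining pairs named by the same rule were those of Prmt2, Gramd1a, Sema4g and Usp50, with excesses of 7, 6, 6 and 4 counts.

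The largest excess in sum was not among these, since it was found in 1 library. Atn1-003, named after its values were seen, had 87 counts against 62 in replicate 1 and 20 against 20 in replicate 2. Over the genes, an NMD isoform had the highest summed count of all transcripts in 56 of 691, a protein-coding one in 619 and a retained-intron one in 15.

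SR proteins bind exonic enhancers and are the best known users of poison exons. Of 13 genes in the SR list, 8 had 13 NMD isoforms. Of these isoforms 8 had counts in both libraries, beside 42.2% of all NMD isoforms. The 11 pairs past the partner filter had a median of 35.0% of the partner's count, beside 45.0% over all pairs. The libraries disagreed on this order: the median was 26.7% in replicate 1 and 60.0% in replicate 2, against 44.8 and 40.0% over all pairs. Of the 11, 1 was above the partner in both libraries and 5 were at most 50% of it in both, beside 1.68 and 48.5% of all pairs. Srsf3-002 had 37 and 12 counts against 48 and 15, or 78.5% ± 2.06 (SD, n = 2). Srsf6-002 had 26 and 10 against 28 and 9, and Tra2b-003, with 117 coding nucleotides against 867, had 26 and 7 against 31 and 11.

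The isoforms of Srsf2, Srsf3, Srsf6 and Tra2b were the 4 with at least 20 counts. Among the other members, Srsf5-010 had 14 and 2, Srsf4-004 had 8 and 0, and Srsf11-008 had 4 and 3. Srsf2-003, an isoform of 620 nucleotides with no annotated 5' UTR, had 0 in both.

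A broader list of 64 splicing regulators held 70 NMD isoforms of 30 genes. Of the 70, 48 had counts in both libraries, beside 42.2% of all NMD isoforms. Its 50 pairs, from 20 genes, had a median of 37.1% of the partner's count, beside 45.0% over all pairs. By library the median was 39.2% in replicate 1 and 38.9% in replicate 2, against 44.8 and 40.0% over all pairs. Tardbp alone gave 10 of these pairs, all set against the same partner. Of the 50, 0 were above the partner in both libraries and 27 at most 50% of it in both, beside 1.68 and 48.5% of all pairs. Their median relative transcript length was 24.2%, against 37.4% over all pairs, and its part was not tested. By count, Ddx5-002 led the list. Hnrnpdl-002, from the gene of an hnRNP-like protein, had 47 and 10 counts against 42 and 10. A second isoform of that gene, Hnrnpdl-003, keeps all 1263 coding nucleotides and had 48 and 7.

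Rbm3-007, from the gene of a cold-inducible RNA-binding protein, had 47 and 12 counts against 61 and 10. Snrpb-002, from the gene of a core Sm protein, had 35 and 15 against 49 and 12. Ptbp2-008, from the gene of the neuronal polypyrimidine tract-binding protein, had 49 and 8 against 54 and 14. These 3 isoforms were below the partner in replicate 1, and Rbm3-007 and Snrpb-002 were above it in replicate 2. The lower members Hnrnpd-004 (52 and 11 against 82 and 21) and Hnrnpl-006 (62 and 11 against 100 and 38) have no annotated 5' UTR. The same holds for Hnrnpdl-002 and Celf2-005, which stood higher, and for Hnrnpl-004, the partner of Hnrnpl-006. Celf2-005 had 37 and 11 against 49 and 15.

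NMD isoforms of 1 gene also differed among themselves. In 220 genes with several isoforms past the partner filter (542 isoforms), the lowest held a median of 17.8% of the partner's count and the highest 67.7%. Tardbp, the gene of the RNA-binding protein TDP-43, had the most, with 10 isoforms between 12.5 and 81.3% of the 29 and 3 counts of Tardbp-001. Tardbp-011 had 22 and 4 counts, Tardbp-009 had 13 and 2, and Tardbp-002 had 13 and 0. Replicate 2 is too shallow here to order the isoforms.

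Some ribosomal protein genes, Rpl3 and Rpl12 among them, are known to limit their own output by unproductive splicing. Of 84 cytosolic ribosomal protein genes, 12 had 1 NMD isoform each. All 12 isoforms had counts in both libraries, beside 42.2% of all NMD isoforms. The 10 pairs past the filter had a median of 72.9% of the partner's count (lowest 40.0%, highest 105%), beside 45.0% over all pairs. Of the 10, 0 were above the partner in both libraries and 0 at most 50% of it in both, beside 1.68 and 48.5% of all pairs. Rpl10a-002 had 47 and 16 counts against 46 and 20 with 177 of 654 coding nucleotides. Rpl12-002 had 17 and 6 against 17 and 5, and Rpl3-006 had 21 and 11 against 60 and 20. The median relative transcript length of these pairs was 63.7%, against 37.4% over all pairs, and fragments of ribosomal protein genes also match their many pseudogenes. Whether length or pseudogenes have a part in the higher median was not tested.

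**Figure D5:**
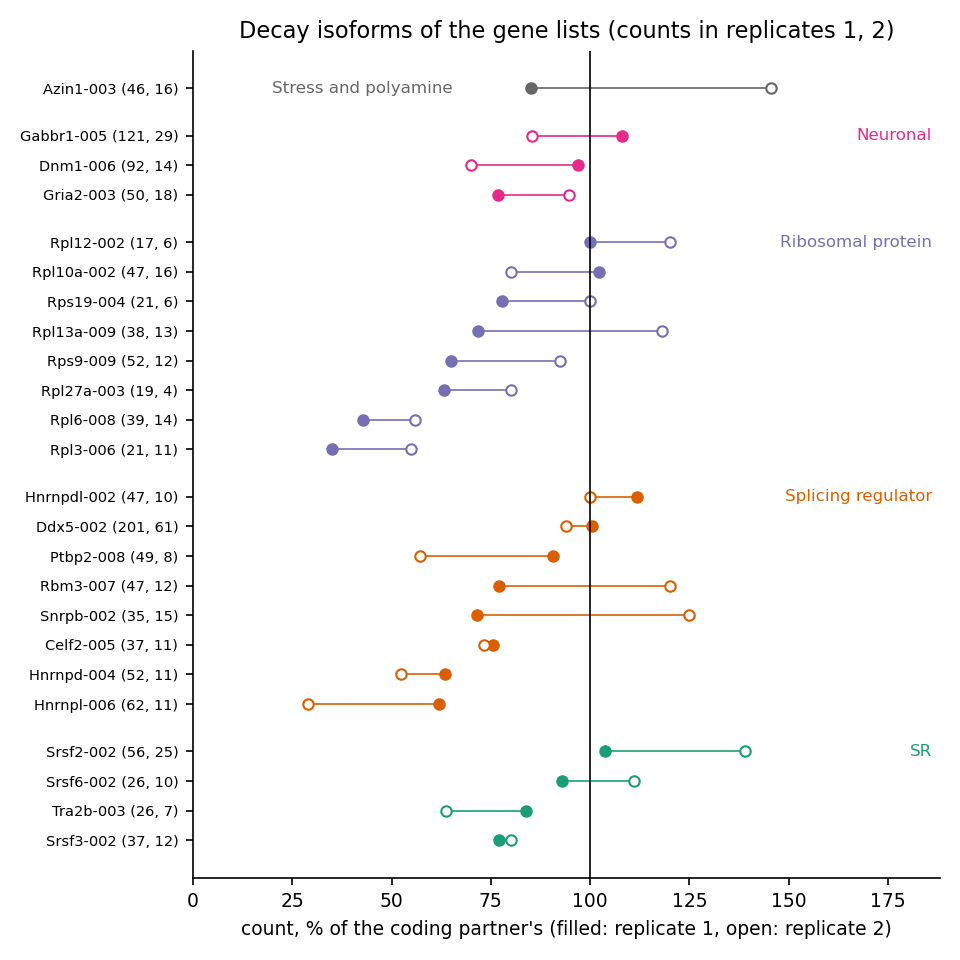
Count as a percentage of the coding partner's (horizontal) for the NMD isoforms of each gene list with at least 20 counts in sum, at most 8 per list; filled points are replicate 1, open points replicate 2, the line joins them, and the counts in each library stand beside the name. The replicates lie farthest apart for Azin1-003 (85.2 and 145%), and Srsf2-002 is above 100% in both.

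Among 36 neuronal genes, 6 had 10 NMD isoforms. All 10 had counts in both libraries, beside 42.2% of all NMD isoforms. Dnm1, which encodes the synaptic vesicle fission GTPase dynamin, had 4 of the 10. Dnm1-006 had 92 and 14 counts against 95 and 20 and 2604 coding nucleotides against 2595. The other 3 had 26 and 9, 24 and 5, and 10 and 5 counts. Gria2-003, from an AMPA receptor subunit gene, had 50 and 18 against 65 and 19. Dlg4-012, from the gene of the postsynaptic scaffold PSD-95, had 12 and 4.

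Over the 10 neuronal pairs the median was 25.9% of the partner's count, beside 45.0% over all pairs. Of the 10, 0 were above the partner in both libraries and 7 at most 50% of it in both, beside 1.68 and 48.5% of all pairs. Their median relative transcript length was 22.3%, against 37.4% over all pairs; its part in the lower median was not tested. In the stress and polyamine list of 13 genes, Azin1-003, from the antizyme inhibitor gene, had 46 and 16 counts against 54 and 11. Sat1-002, from the gene of the polyamine acetylating enzyme, had 5 and 1. The decay pathway's own genes gave little: 4 of 26 had NMD isoforms, with 7 and 3 counts in sum over 6 isoforms and no pair past the partner filter. Among the marker genes of brain cell types, blood, liver and muscle, Mbp alone had an NMD isoform, with 10 and 2 counts.

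For 50 NMD isoforms of 43 genes the table holds no protein-coding transcript, so they had no partner. Of these, 44 belong to 38 predicted genes with Gm symbols. They held 725 counts in replicate 1 and 215 in replicate 2. Gm28062-001 (ENSMUSG00000100725), whose coding sequence spans 2382 nucleotides, had 205 and 84 counts, below Actg1-002 and Ywhae-002 alone when 1 isoform is taken per gene. Gm38393-002 had 68 and 13 counts and Gm20716-001 had 52 and 16.

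The design allows 1 further comparison, between the libraries. An exact binomial test per transcript compared the reads of these 2 libraries, not conditions, over the 11093 transcripts whose mean count reached 10, with Benjamini-Hochberg adjustment at 0.05. It called 1.89% of all transcripts, 1.82% higher and 0.0721% lower in replicate 2. Of the 469 NMD isoforms tested it called 0, with 37 (7.89%) at an unadjusted p under 0.05 against 7.65% of all transcripts. edgeR's exact test with a preset coefficient of variation also called 0, with 12 at an unadjusted p under 0.05. The median log2 ratio of replicate 2 to replicate 1 was -0.13 for NMD isoforms and -0.05 for all transcripts.

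The smallest adjusted p of the exact binomial test was 0.145, for Eef1b2-002, from a translation elongation factor gene, with 10 and 11 counts. Gnao1-007, from the gene of a neuronal G protein subunit, had 86 and 11 counts, and Skp1a-004, from the gene of a ubiquitin ligase adaptor, had 100 and 14. Another scaling took as library sizes the totals over each gene's highest transcript (343552 and 120282), not the column totals. It lowers the median log2 ratio of all transcripts from -0.05 to -0.25. Under it 3 NMD isoforms were called, each lower in replicate 2: Gnao1-007, Skp1a-004 and Actg1-002.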

How the data were processed

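The 2 libraries were active ribosome profiling (RiboLace) of mouse brain. The authors deposited a table of raw whole-number footprint counts, 1 column per replicate, with annotated transcript lengths; the table has 0 columns of other samples. The submitters' processing notes name Trimmomatic 0.36, Bowtie2 2.2.6, SAMtools and the build GRCm38.p4; the counting tool, its treatment of multiple matches and the annotation release are not given in the sources used here. Column totals were 729027 and 225075, so replicate 2 is the less precise. Symbols are the table's; of 3173 gene identifiers, 3169 were listed in the reference names, 3050 with an identical symbol. No transcript sequences or coordinates of these isoforms were used here.

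The coding partner was the protein_coding transcript with the highest summed count, the longer in a tie. Ratios were log2((count + 0.5)/(partner count + 0.5)). For the library test (scipy 1.17.1), sizes were scaled by TMM in edgeR 4.0.16 over 5436 genes, each represented by its highest transcript; DESeq2 1.42.0 size factors were an alternative. The test was tried on simulated libraries. Both libraries form 1 group, and p-values measure only the spread between these reads. Reads lack molecular identifiers and may be PCR copies, so intervals cover counting error only.

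Named isoforms were the 12 with the highest count (1 per gene), the 12 largest excesses over the partner among pairs above it in both libraries, the 6 genes with the highest partner count whose NMD isoforms all held at most 10% of it, up to 6 called between libraries (there were 0), and up to 8 per gene list with at least 20 counts. The members and lists were chosen with earlier results of these data known.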

Additional observations from a re-analysis of the deposited data

How the results depend on the processing

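No paired analysis was possible because both libraries belong to the same group. The depth of replicate 2 limits single ratios. Unless a cause is named beside a change, the cause was not tested.

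The 2069 NMD isoforms with a count in each library became 2251 to 3410 with 1 library left out (more by construction, since 1 library then suffices) and 997 with a summed count of at least 10. Their share of 3.84% became 3.13% with 1 isoform per gene and 3.55 to 4.12% with 1 library left out.

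The median log2 ratio of -1.13 became -1.08 with the longest coding partner (928 pairs), -1.32 with partners of at least 50 counts, -0.92 with at least 1, -0.63 with 1 isoform per gene, -1.12 with a pseudocount of 1 and -1.14 to -1.13 with 1 library left out. It was -0.00893 per kilobase of transcript and 0.73 per kilobase of coding sequence. The 17 pairs above the partner became 3 with partners of at least 50 counts and 85 with at least 1. With 1 library left out they became 66 (by replicate 1) to 104 (by replicate 2). The 491 pairs at most 50% became 157, 1954 and, with 1 isoform per gene, 250, and 543 to 593 with 1 library left out, of 304, 4172 and 691 pairs in the first 3. The 129 isoforms with a short coding sequence and a high count became 70 at a threshold of 90%, 34 with partners of at least 50 counts (of 132), and 129 to 138 with 1 library left out; these alternatives were chosen after seeing the data.

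The 210 transcripts called between libraries became 85 when a mean count of 50 was required (1335 tested) and 121 with a coefficient of variation of 0.2. With the totals over each gene's highest transcript as library sizes, 37 instead of 8 were lower in replicate 2 and 175 instead of 202 higher. The 0 NMD isoforms called became 3 with the totals over each gene's highest transcript and were 0 under the other 4 alternatives. Of 50 named ratios, 5 moved beyond the replicate SD with the longest coding partner, 42 without replicate 1 and 1 without replicate 2. The ratio of summed counts lies near that of the deeper replicate 1, and the SD comes from the same 2 ratios. The 42 and the 1 therefore follow from depth, and no conclusion on stability is drawn from them.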
